A study of Homo sapiens with 21 samples.

Results

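The 43 genes described here encode the machinery of cell division: the cyclin-dependent kinase that starts mitosis, the kinases and kinesins that build the spindle, the kinetochore, the spindle checkpoint and the proteins that release anaphase. They form a list of gene symbols, matched by Ensembl identifier to a table of gene counts. The rule itself uses no measured value, but the list was chosen with earlier results of these data known. All 43 were found among the 37637 rows of the table, and all 43 passed the filter on low counts that left 17468 genes for testing.

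The counts come from RNA sequencing of HepG2, an established human line from a liver tumour that keeps many hepatocyte genes on and divides in culture. Cells were moved from serum-containing to fresh serum-free medium that held caffeine at 0, 0.01, 0.1, 1, 10, 100 or 1000 µM, and all were harvested after 6 h. Each dose has 3 libraries, which the series text calls biological replicates without saying whether they came from separate passages or days, so the p-values measure the spread between these libraries. The series text names coumarin for its control, while the sample labels call the same libraries caffeine at 0 µM; they are used here as the 0 µM group. Serum withdrawal is shared by every group, the 0 µM group included, and only 1 cell line was used.

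Mitotic genes are transcribed mainly in late S phase, G2 and mitosis. In quiescent and G1 cells the DREAM complex, which holds an RB-like protein, E2F4 or E2F5 and the MuvB core, keeps them off. MuvB then passes to B-MYB and FOXM1, which turn them on, and many of their promoters carry a cell cycle genes homology region (CHR) that MuvB binds and CCAAT boxes that NF-Y binds. Caffeine blocks adenosine receptors and phosphodiesterases, and at high doses also the checkpoint kinases ATM and ATR, which hold damaged cells back from mitosis. In bulk RNA a change in the share of cells in G2 and mitosis cannot be told apart from a change in RNA per cell, and this holds for every value below.

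Total counts ran from 28043623 to 40827833 per library and mitochondrial genes took 4.95% to 14.2% of them. All 9 hepatocyte markers were detected in every library, from FGB, a fibrinogen chain, at 42.2 to 62.0 CPM (counts per library scaled to a common size) and TTR, transthyretin, at 72.0 to 128 to ALB, serum albumin, at 4745 to 7145 and APOB, an apolipoprotein, at 5089 to 11772. Of the markers of other cell types, PTPRC, CD3E, COL3A1 and DCN had 0 or 1 count in a library, while CD14 had 14 to 47 counts and PDGFRB 123 to 359. Between 0 and 1000 µM some markers moved too: APOA1, AFP and CD14 fell by 1.04, 0.69 and 1.09 on the log2 scale and PDGFRB and APOB rose by 0.95 and 0.56, and their part in the results below was not tested.

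The promoter sequences are shown because these genes are known as a group that shares regulatory elements. RefSeq windows of 300 bases around the annotated start (GRCh38.p14) matched 36 of the 43 genes, all but WEE1, AURKA, BIRC5, BUB3, TTK, UBE2C and TPX2. The CHR was searched as the letters TTTGAA or TTCGAA only, and other spellings were not counted. These letters stood on either strand in 24 of the 36 (66.7%), against 16.4% of all 35116 windows and 11.3% of 11013 windows of tested genes. CCAAT, searched on both strands and able to share at most 1 base with the CHR letters, stood in 28 of them (77.8%), against 34.6% of all windows, and both stood in 21 (58.3%), against 6.38%. Below are 2 genes that were higher at 1000 µM and hold both motifs (BUB1 and ASPM), 1 that was higher and holds CCAAT only (NEK2), 2 that were lower and hold both (CDC20 and SPC25) and 1 that was lower and whose window holds neither (TACC3). Capitals mark the CHR and CCAAT letters, read on either strand.
BUB1: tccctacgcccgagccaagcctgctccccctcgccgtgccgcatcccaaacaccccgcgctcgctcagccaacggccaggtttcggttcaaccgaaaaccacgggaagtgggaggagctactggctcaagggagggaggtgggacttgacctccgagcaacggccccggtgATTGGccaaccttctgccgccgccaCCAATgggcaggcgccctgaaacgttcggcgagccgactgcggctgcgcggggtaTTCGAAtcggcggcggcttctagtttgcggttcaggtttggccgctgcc
ASPM: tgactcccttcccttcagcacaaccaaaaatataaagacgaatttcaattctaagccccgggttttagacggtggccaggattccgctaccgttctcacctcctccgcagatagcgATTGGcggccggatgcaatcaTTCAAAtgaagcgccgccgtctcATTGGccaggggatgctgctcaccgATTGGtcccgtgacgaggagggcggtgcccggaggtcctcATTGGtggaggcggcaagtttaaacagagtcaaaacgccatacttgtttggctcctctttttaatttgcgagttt
NEK2: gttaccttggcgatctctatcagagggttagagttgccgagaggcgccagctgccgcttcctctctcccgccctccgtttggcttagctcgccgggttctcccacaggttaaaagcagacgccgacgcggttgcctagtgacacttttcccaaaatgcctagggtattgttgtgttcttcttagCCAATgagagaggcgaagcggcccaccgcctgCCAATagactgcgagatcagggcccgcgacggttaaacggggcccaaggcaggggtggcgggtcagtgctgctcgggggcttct
CDC20: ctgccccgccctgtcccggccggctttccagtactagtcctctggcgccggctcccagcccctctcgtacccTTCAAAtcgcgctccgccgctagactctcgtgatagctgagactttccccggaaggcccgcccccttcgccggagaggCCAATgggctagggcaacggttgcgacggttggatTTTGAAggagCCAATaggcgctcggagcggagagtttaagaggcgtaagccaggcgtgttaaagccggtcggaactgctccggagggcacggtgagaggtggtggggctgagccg
SPC25: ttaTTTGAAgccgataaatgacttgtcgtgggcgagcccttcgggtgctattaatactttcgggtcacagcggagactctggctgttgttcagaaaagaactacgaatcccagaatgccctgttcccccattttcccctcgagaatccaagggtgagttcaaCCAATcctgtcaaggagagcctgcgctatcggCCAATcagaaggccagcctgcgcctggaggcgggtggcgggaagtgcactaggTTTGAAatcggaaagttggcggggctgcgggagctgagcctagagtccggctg
TACC3: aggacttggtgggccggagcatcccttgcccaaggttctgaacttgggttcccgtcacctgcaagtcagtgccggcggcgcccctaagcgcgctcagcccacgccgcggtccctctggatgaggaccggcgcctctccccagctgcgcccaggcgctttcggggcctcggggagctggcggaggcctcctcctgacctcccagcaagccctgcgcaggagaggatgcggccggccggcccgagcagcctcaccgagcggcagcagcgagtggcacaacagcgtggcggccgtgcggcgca
The windows lie at chr2:110678014-110678313, minus strand (BUB1), chr1:197146620-197146919, minus strand (ASPM), chr1:211675572-211675871, minus strand (NEK2), chr1:43358731-43359030, plus strand (CDC20), chr2:168890381-168890680, minus strand (SPC25) and chr4:1720381-1720680, plus strand (TACC3). Among genes that were higher at 1000 µM, 8 of the 10 with a window held the CHR letters searched. Among genes that were lower it was 2 of 4, and among the rest 14 of 22. The windows follow RefSeq's start of each gene: the outermost start in GENCODE, which the gene positions given below use, lies outside the window for TACC3, SPC25 and some of the other genes, so a window without a motif says nothing of their other starts. A match of letters describes the sequence and does not show that a factor binds there.

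As a set the 43 genes stayed near 1 level while single genes went in opposite directions. Their mean log2 level per library, relative to the 0 µM mean, lay between -0.06 and 0.13 across all 21 libraries, and their summed level stayed between 4091 and 4584 CPM (scaled with edgeR's TMM factors). Group means for the doses from 0.01 to 1000 µM were 0.040 ± 0.046, -0.037 ± 0.031, -0.033 ± 0.038, -0.025 ± 0.024, 0.031 ± 0.032 and 0.067 ± 0.064 in that order (SD, n = 3). The 0 µM libraries themselves ranged from -0.06 to 0.05.

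**Figure D1:**
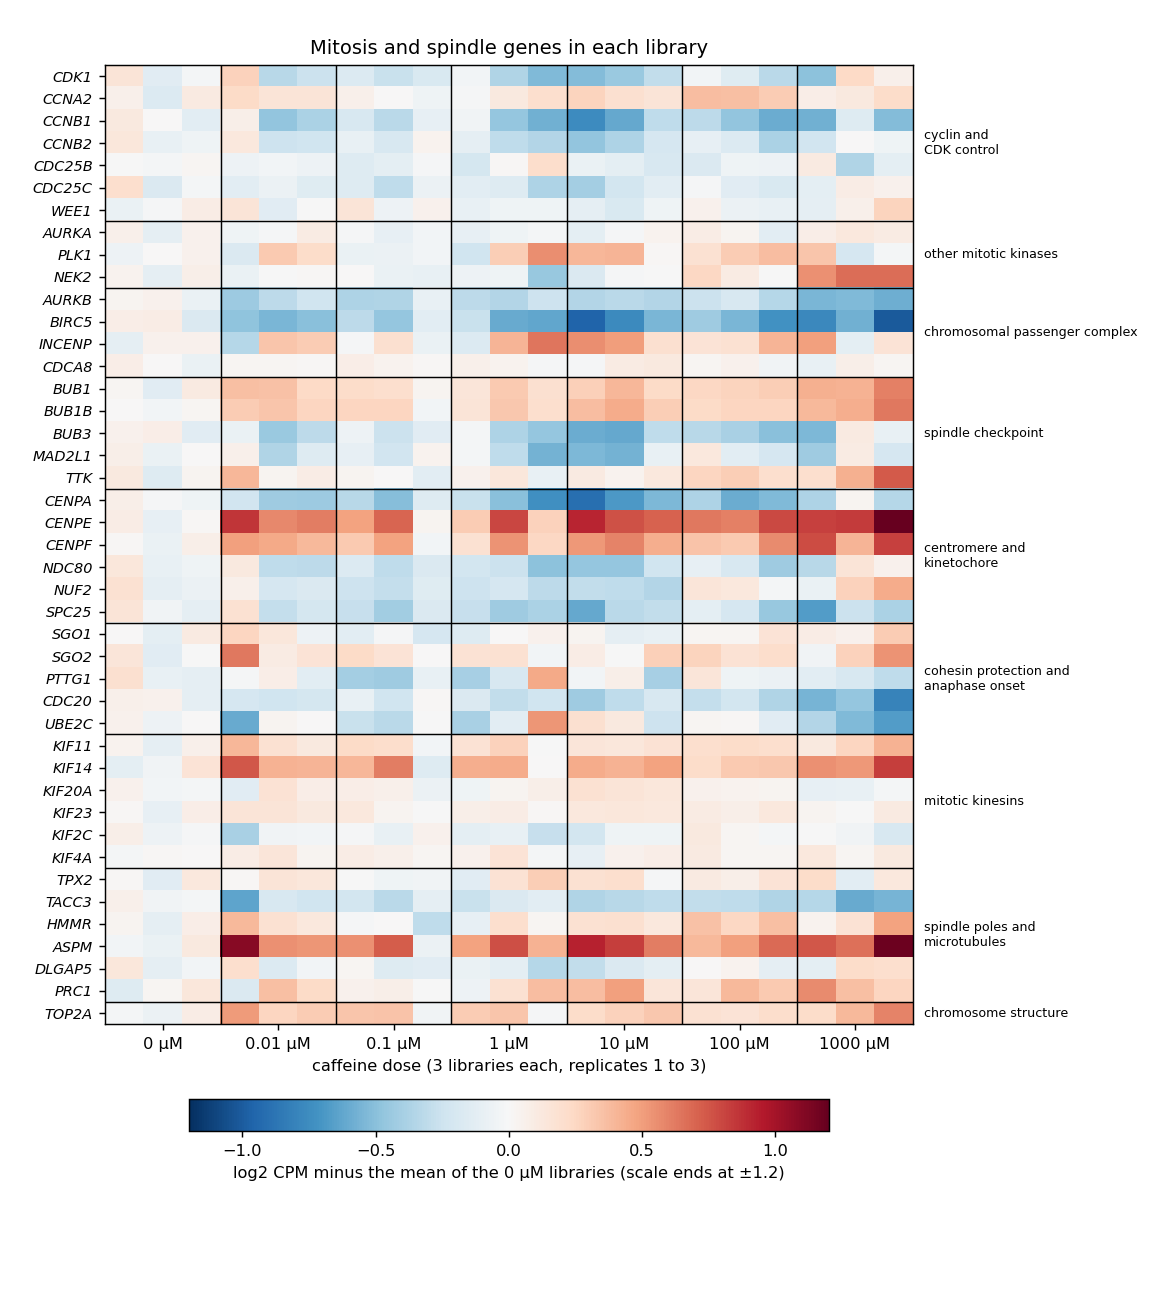
Log2 CPM of each of the 43 genes (vertical axis, by role) in each of the 21 libraries (horizontal axis, 7 caffeine doses of 3 libraries), minus the gene's mean over the 0 µM libraries; red is higher, blue is lower, and the scale ends at 1.2. CENPE and ASPM are red in the treated libraries except replicate 3 at 0.1 µM, strongly in some and weakly in others. BIRC5 and AURKB are blue in every treated library, and NEK2 is red across the 1000 µM libraries.

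The question of each dose against 0 µM was put to every gene with edgeR's quasi-likelihood test in 1 fit over the 7 groups, with Benjamini-Hochberg adjustment over all 17468 genes and a threshold of 0.05. All these comparisons share the 0 µM libraries, so their calls are not independent of each other. At 1000 µM 17 listed genes passed, 11 higher and 6 lower, a share of 39.5% that is close to the 41.2% of all genes tested. Their median log2 fold change was 0.08, against -0.03 over all genes. At 10 µM 15 passed, 5 higher and 10 lower (34.9%, against 22.0% of all genes, 11.3% higher and 10.7% lower). At 100 µM 4 passed, 2 in each direction (9.30%, against 6.02% of all genes, 2.74% higher and 3.27% lower). At 0.01 µM 5 passed, 3 higher and 2 lower (11.6%, against 4.95% of all genes, 2.87% higher and 2.08% lower). At 0.1 and 1 µM no listed gene and no gene at all passed by edgeR (0% of all genes). At these doses 6 and 13 listed genes had an unadjusted p under 0.05, and DESeq2 called 1 and 7. The shares of all genes under these rules are not given, so these counts do not show whether the listed genes moved apart from the whole table. Among the 7 groups 14 of the 43 differed, against 28.1% of all genes. Single libraries weighed on the smaller counts, which are given here without the share of all genes. At 0.01 µM the count was 0 without replicate 1 or 2 of either group. The count for 100 µM was 0 without replicate 1 or 2 at 0 µM or replicate 2 or 3 of the dose, and 1 without replicate 1 of the dose. For 10 µM it was 7 without replicate 1 or 2 of either group. At 0.1 µM it was 3 without replicate 3 of that dose, and at 1 µM it was 2 without replicate 1 of that dose. Without replicate 1 at 0 µM the 7 groups differed for 9 genes.

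Further contrasts separate the step to the lower doses from the step to the top dose. The mean of the 4 lower doses from 0.01 to 10 µM differed from 0 µM for 11 listed genes, 6 higher and 5 lower (18.2% of all genes were called, 9.31% higher and 8.93% lower). Against that same mean, 1000 µM differed for 11 genes, 7 higher and 4 lower (30.7% of all genes), or 6 in each direction under upper-quartile scaling. Without replicate 1 at 0 µM the first count was 0 and without replicate 2 there it was 2, and without replicate 1 at 0.01 µM it was 17; without replicate 3 at 1000 µM the second was 3. Against 100 µM, the dose next to it, 1000 µM differed for 3 genes, 1 higher and 2 lower (14.7% of all genes, 8.15% higher and 6.55% lower), and DESeq2 called 3 higher and 2 lower. That count was 1 without replicate 1 or 2 at 100 µM or replicate 3 at 1000 µM. The counts by DESeq2, under upper-quartile scaling or without a library are given without the share of all genes. Along the 6 dose steps taken as ranks 14 genes had a slope, 8 rising and 6 falling (29.0% of all genes).

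Which way a gene moved went with its length. At 1000 against 0 µM the log2 fold changes of the 43 genes had a Spearman correlation of 0.731 with coding length (a description across genes, which share the same libraries), and over all 12736 tested coding genes it was 0.387. Of 10 equal classes of coding length, the shortest had a median log2 fold change of -0.41 and the longest 0.36. For the doses 0.01, 0.1, 1, 10 and 100 µM the same correlation over the 43 genes was 0.765, 0.807, 0.749, 0.739 and 0.68. It was weaker between treated groups: 0.394 for 1000 against 100 µM and 0.356 for 1000 µM against the mean of the lower doses.

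The length pattern sat between the 0 µM libraries and nearly all treated ones. The mean log2 level of the 21 genes above the median coding length (1860 nucleotides), minus that of the other 22, ran from -0.04 to 0.07 in the 0 µM libraries. In the treated libraries it ran from 0.02 to 0.54; the lowest was replicate 3 at 0.1 µM, which lay among the controls, and the next lowest was 0.20. What gives rise to the length pattern was not tested. GC content moved with the fold changes as well (Spearman -0.558 over the 43 genes at 1000 against 0 µM). Unlike that with length, this correlation was not weaker between treated groups. It was -0.574 for 1000 against 100 µM and -0.62 for 1000 µM against the mean of the lower doses. Over all 15685 genes with a transcript length the 3 values were -0.383, -0.365 and -0.356.

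**Figure D2:**
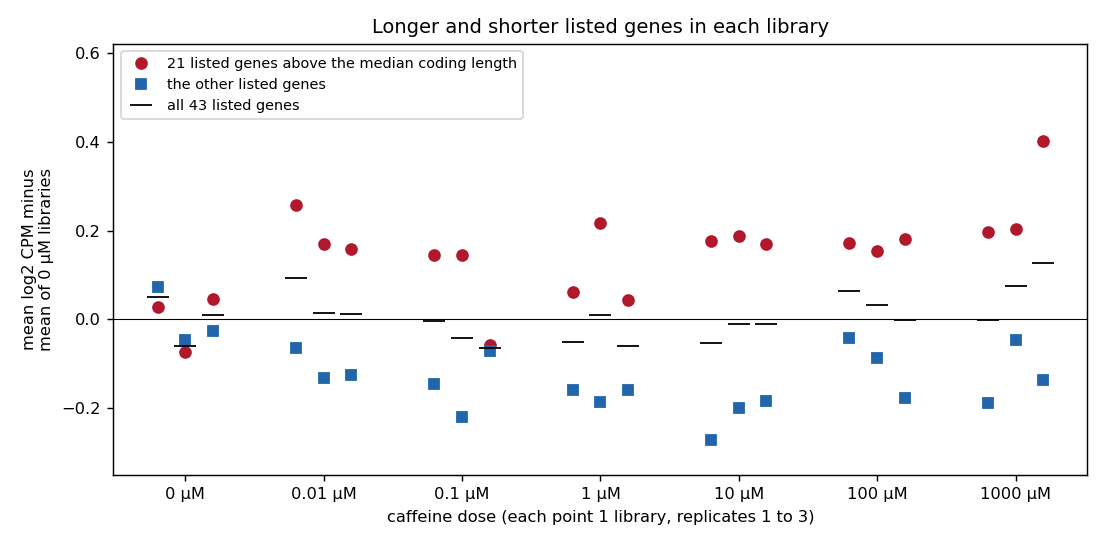
Mean log2 CPM relative to the 0 µM mean (vertical axis) of the longer and the shorter listed genes and of all 43, with 1 point per library at each caffeine dose (horizontal axis). Longer and shorter genes lie together in the 0 µM libraries and in replicate 3 at 0.1 µM and apart in the other treated libraries, while the mean of all 43 stays between -0.06 and 0.13.

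Since this pattern runs through the whole table, the counts of calls are set here beside 2 corrections that were chosen after the data were seen, in which each library's trend over length and GC content is removed before the same edgeR test. One uses transcript length and the other coding length. With transcript length corrected, the listed genes' fold changes against 0 µM still correlated with coding length. From 0.01 to 1000 µM the correlations were 0.408, 0.571, 0.436, 0.454, 0.311 and 0.263 in order of dose. With coding length corrected they were 0.0887, -0.0433, 0.158, 0.181, 0.144 and 0.041. For 1000 against 100 µM the first correction left 0.00325. Against 0 µM, a call kept with transcript length corrected alone may still hold part of this trend. At 1000 against 0 µM the corrected counts were 7 higher and 5 lower with transcript length (35.9% of all genes called) and 2 higher and 16 lower with coding length (37.9%), against 11 and 6 without. Only NEK2 (higher), BIRC5 and TACC3 (lower) passed in the same direction in all 3. The share of all genes that passed alike in all 3 fits was not counted. Here and below, the number of such genes therefore cannot be set against the table as a whole. Under the corrections the calls over all genes were not split by direction. The corrected splits of the listed genes and of the other lists therefore cannot be set against the table as a whole. At 10 µM the splits were 6 higher and 7 lower (17.8%) and 1 higher and 14 lower (19.1%), and 6 genes passed alike in all 3, all lower: CCNB1, CCNB2, BIRC5, BUB3, CENPA and TACC3. At 100 µM they were 1 and 3 (5.60%) and 1 and 5 (5.98%), with CCNA2 higher and BIRC5 lower in all 3. At 0.01 µM no listed gene passed under either correction (0.0687% and 0.00572% of all genes), where edgeR without correction called 5. At 1 µM the transcript length correction called 0.0343% of all genes and no listed gene. Among the 7 groups 11 listed genes passed with transcript length corrected (29.0% of all genes) and 19 with coding length corrected (29.8%), and CCNA2, NEK2, BIRC5, CENPA, NUF2 and TACC3 passed in all 3.

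For the mean of the lower doses against 0 µM the corrected splits were 3 higher and 4 lower with transcript length (10.3% of all genes) and 1 and 10 with coding length (10.8%), and BIRC5 and TACC3 were lower in all 3 fits. For 1000 µM against that mean they were 6 and 4 (32.6%) and 4 and 8 (32.9%), and NEK2, TTK and NUF2 were higher in all 3. For 1000 against 100 µM they were 2 and 1 (17.6%) and 2 and 6 (18.0%), and NEK2 was higher in all 3. Along the dose steps they were 7 and 7 (28.9%) and 2 and 14 (30.7%), with NEK2 rising and CCNB1, BIRC5, SPC25, CDC20 and TACC3 falling in all 3.

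**Figure D3:**
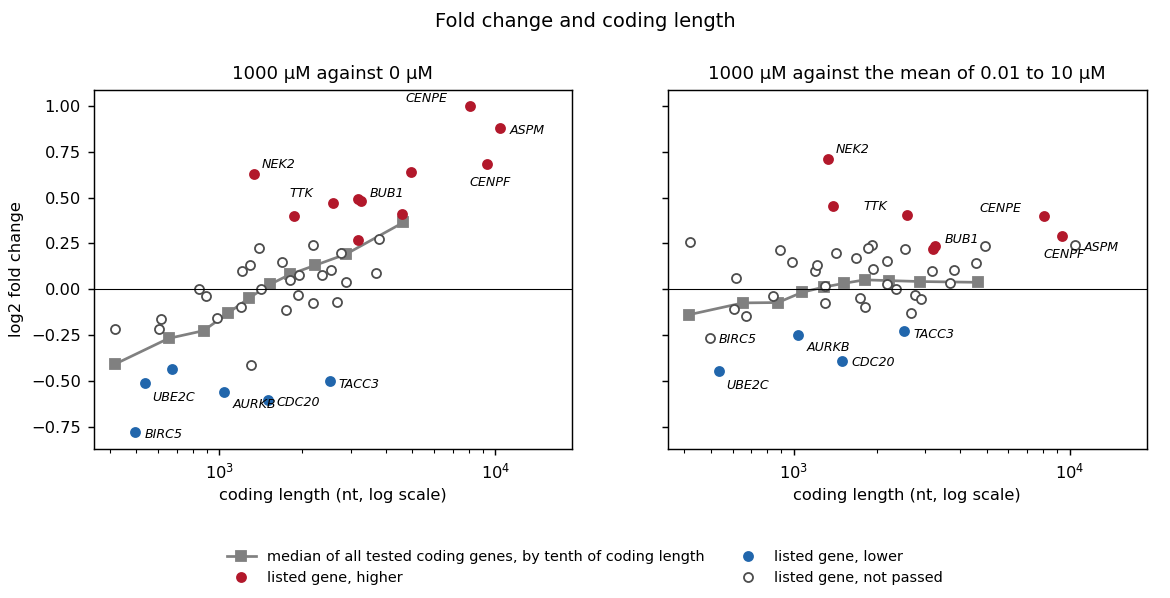
Log2 fold change of each of the 43 genes (vertical axis) against coding length (horizontal axis, log scale), for 1000 against 0 µM (left) and against the mean of 0.01 to 10 µM (right); filled circles passed the test and grey squares are medians of all tested coding genes in 10 length classes. NEK2 stands above and TACC3 below the grey line in both panels, while CENPE, CENPF and ASPM, the longest of the genes, lie above the grey line and beyond its right end; in the left panel all 3 are filled and lose the call when coding length is corrected for (CENPF then changes sign), and in the right panel ASPM did not pass.

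Of the genes that start mitosis, none of 7 passed at 1000 against 0 µM (41.2% of all genes did). CDK1 is the mitotic kinase, CCNA2, CCNB1 and CCNB2 its cyclins, CDC25B and CDC25C the phosphatases that switch it on and WEE1 the kinase that holds it off. CCNA2, cyclin A, was measured at 165, 141 and 172 CPM at 0 µM and at 168, 172 and 185 at 1000 µM. CCNA2 gave 186, 176 and 177 with 0.01 µM, 166, 159 and 153 with 0.1 µM and 157, 173 and 183 with 1 µM. With 10 µM CCNA2 stood at 191, 181 and 177, and with 100 µM at 205, 203 and 196. All 3 libraries at 100 µM lay above every other library, while those at 1000 µM overlapped with 0 µM. CCNA2 was higher at 100 than at 0 µM by 0.34 ± 0.081 on the log2 scale (SE; edgeR adjusted p = 0.0278), with 0.35 and 0.31 under the corrections, and it differed among the 7 groups (edgeR adjusted p = 0.0307, and 0.0188 and 0.031 when corrected). Its exons overlap those of EXOSC9 on the opposite strand, and the strand setting of the counting is not given in the sources used here.

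Cyclins B1 and B2 were lowest at 10 µM. CCNB1 ran from 169 to 200.4 CPM at 0 µM to 109 to 149 at 10 µM and 124 to 165 at 1000 µM, and the 10 µM libraries lay below all 3 at 0 µM. The log2 fold change at 10 µM was -0.55 ± 0.16 (edgeR adjusted p = 0.0244), and that of CCNB2 was -0.34 ± 0.12 (edgeR adjusted p = 0.0435); both also passed under both corrections. At 1000 µM CCNB1 was at -0.41 (edgeR adjusted p = 0.0525), just short of the threshold, and at -0.33 and -0.53 with corrected values that passed. CDK1, CDC25B, CDC25C and WEE1 had log2 fold changes of -0.038, -0.11, 0.0011 and 0.080 at 1000 µM, none past the test. With coding length corrected CDC25B, CDC25C and WEE1 changed sign (0.049, -0.078 and -0.22), and WEE1 passed as lower (edgeR adjusted p = 0.036).

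NEK2, a centrosome kinase that parts the 2 spindle poles at mitotic entry, was higher at the top dose than in any other group. It was measured at 36.4, 32.8 and 37.2 CPM at 0 µM and at 51.9, 56.5 and 56.4 at 1000 µM. NEK2 gave 33.4, 35.4 and 35.7 with 0.01 µM, 35.5, 33.6 and 33.4 with 0.1 µM and 34.0, 34.1 and 25.8 with 1 µM. With 10 µM NEK2 stood at 31.4, 35.0 and 35.3, and with 100 µM at 42.0, 37.9 and 35.3. The 3 libraries at 1000 µM lay above all 18 others, and those at 0.01 to 10 µM lay within or below the range at 0 µM. Its mean went from 35.5 ± 2.35 CPM at 0 µM to 54.9 ± 2.65 at 1000 µM (SD, n = 3), a log2 fold change of 0.63 ± 0.10 (edgeR adjusted p = 0.000105). Against 100 µM the log2 fold change was 0.52 ± 0.10 (edgeR adjusted p = 0.00214) and against the mean of the lower doses 0.71 ± 0.075 (edgeR adjusted p = 1.31e-06), while the difference of the lower doses from 0 µM did not pass (-0.081, edgeR adjusted p = 0.507). The 2 corrections gave 0.71 and 0.48 at 1000 against 0 µM. NEK2 sits on chromosome 1 (211658657 to 211675630, minus strand, GRCh38), and its named copies NEK2P2 and NEK2P4 could take or lend reads. Named copies are also annotated for AURKA (AURKAP1 and AURKAP2), CCNB2 (CCNB2P1), BUB3 (BUB3P1), CDC20 (CDC20P1), SGO1 (SGO1P1 and SGO1P2), DLGAP5 (DLGAP5P1) and KIF4A (KIF4B).

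AURKA and PLK1, listed with NEK2, did not pass at any dose without correction. AURKA, which matures the centrosomes, had the highest level per length of the 43 genes at 0 µM (122 CPM per kilobase of transcript) and ran from 254 to 287 CPM at 0 µM to 291 to 300.1 at 1000 µM, a log2 fold change of 0.10 ± 0.076 (edgeR adjusted p = 0.305). With transcript length corrected it passed (0.22, edgeR adjusted p = 0.0104). PLK1, the polo kinase, was at 218 to 236 CPM at 0 µM and at 198 to 286 at 1000 µM, where its 3 libraries spread on both sides of the controls.

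**Figure D4:**
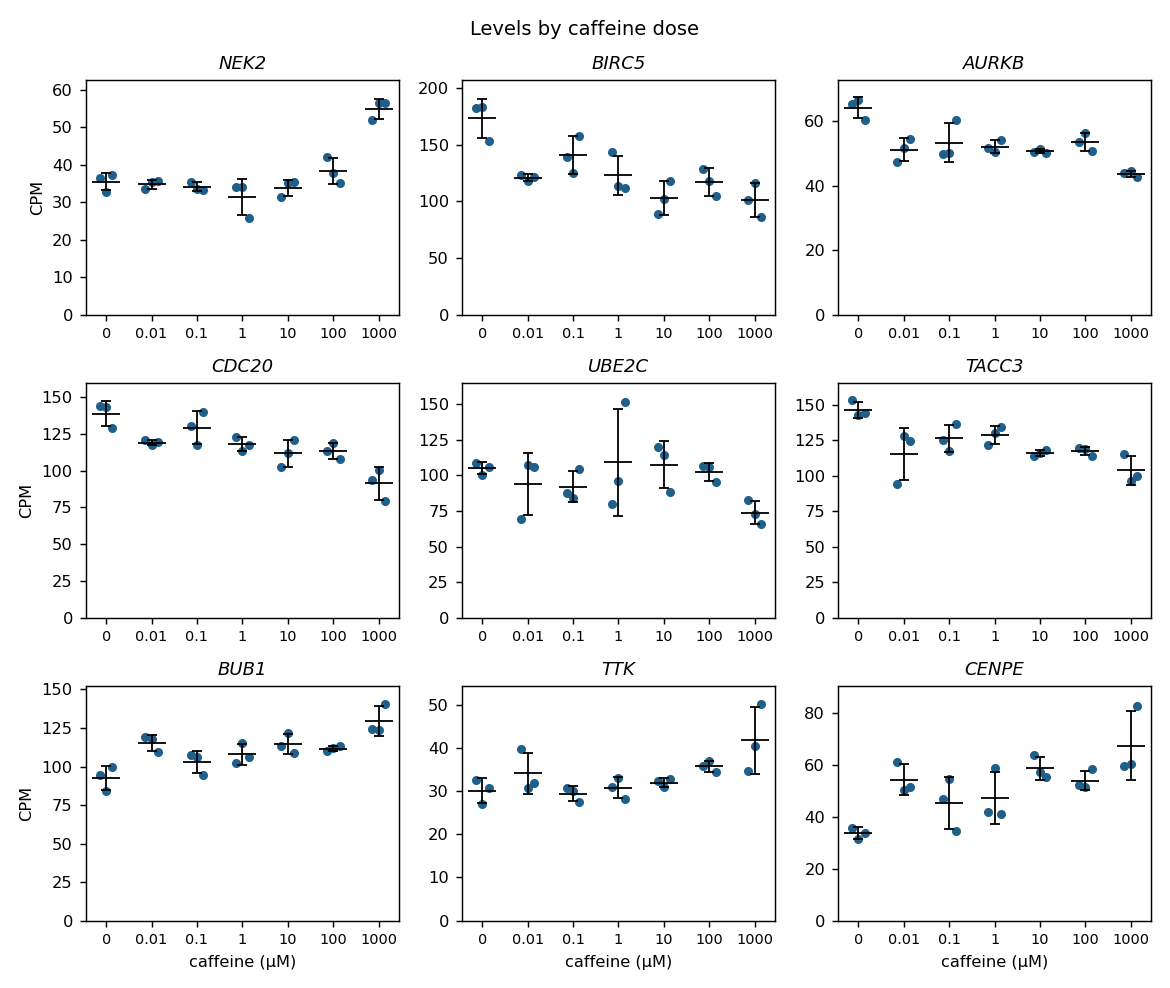
CPM (vertical axes, from 0) of 9 listed genes at each caffeine dose (horizontal axis, equally spaced steps); points are libraries, the long bar is the mean and the whiskers are the SD of 3 libraries. NEK2 is highest at 1000 µM, AURKB and CDC20 are lowest there, TACC3 is below its controls at every dose, and CENPE and BUB1 are above theirs in all treated libraries but replicate 3 at 0.1 µM.

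The chromosomal passenger complex corrects wrong spindle attachments and steers cytokinesis; of its 4 members AURKB and BIRC5 fell at 1000 µM (20.6% of all genes did) and INCENP and CDCA8 did not pass. AURKB, its kinase, was measured at 65.5, 66.8 and 60.6 CPM at 0 µM and at 43.8, 44.4 and 42.6 at 1000 µM. AURKB gave 47.4, 51.8 and 54.5 with 0.01 µM, 49.8, 50.1 and 60.3 with 0.1 µM and 51.7, 50.5 and 54.2 with 1 µM. With 10 µM AURKB stood at 50.4, 51.5 and 50.3, and with 100 µM at 53.7, 56.3 and 50.7. Every library at 0 µM lay above every treated one, and every library at 1000 µM lay below all others. AURKB had a log2 fold change of -0.56 ± 0.081 at 1000 against 0 µM (edgeR adjusted p = 4.77e-05), -0.31 ± 0.063 for the lower doses (edgeR adjusted p = 0.00653), and -0.25 ± 0.065 between the 2 (edgeR adjusted p = 0.00746). Against 100 µM it was -0.30 ± 0.081 (edgeR adjusted p = 0.0203). With transcript length corrected the fall at 1000 µM was no longer past the test (-0.062, edgeR adjusted p = 0.431), and with coding length corrected it was (-0.30, edgeR adjusted p = 0.000217).

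BIRC5, survivin, which docks the complex at centromeres, was measured at 183, 184 and 154 CPM at 0 µM and at 101, 116 and 86.2 at 1000 µM. BIRC5 gave 124, 118 and 122 with 0.01 µM, 139, 125 and 158 with 0.1 µM and 143, 114 and 112 with 1 µM. With 10 µM BIRC5 stood at 89.1, 102 and 119, and with 100 µM at 129, 118 and 105. All treated libraries except replicate 3 at 0.1 µM lay below the controls, and the 10 and 1000 µM libraries overlapped. BIRC5 had a log2 fold change of -0.75 ± 0.13 at 10 µM (edgeR adjusted p = 0.00374), -0.57 ± 0.13 at 100 µM (edgeR adjusted p = 0.0267) and -0.78 ± 0.13 at 1000 µM (edgeR adjusted p = 0.000225), and each passed under both corrections. At 1000 µM the corrected values were -0.67 and -0.41. Against the mean of the lower doses 1000 µM gave -0.26 ± 0.11 (edgeR adjusted p = 0.0743), which did not pass. INCENP, the scaffold, and CDCA8, borealin, had 0.20 and 0.0013 at 1000 µM, and CDCA8 passed as higher only with coding length corrected (0.23, edgeR adjusted p = 0.00611).

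The spindle checkpoint delays anaphase until all chromosomes are attached, and 3 of its 5 listed genes, BUB1, BUB1B and TTK, rose at 1000 µM (20.6% of all genes did), each losing the call with coding length corrected. BUB3 and MAD2L1 did not pass. BUB1, the kinase that recruits the others, was measured at 94.3, 84.4 and 99.5 CPM at 0 µM and at 124, 124 and 141 at 1000 µM. BUB1 gave 119, 118 and 109 with 0.01 µM, 108, 106 and 94.7 with 0.1 µM and 102, 115 and 106 with 1 µM. With 10 µM BUB1 stood at 113, 122 and 109, and with 100 µM at 109.8, 112 and 113. The libraries at 1000 µM lay above all others, and of the treated ones replicate 3 at 0.1 µM alone overlapped with the controls. BUB1 rose by 0.48 ± 0.084 on the log2 scale at 1000 µM (edgeR adjusted p = 0.000247), 0.25 ± 0.068 over the lower doses (edgeR adjusted p = 0.0198) and 0.23 ± 0.066 between them (edgeR adjusted p = 0.0112). Correction for transcript length kept the call at 1000 against 0 µM (0.32) and correction for coding length ended it (0.074, edgeR adjusted p = 0.42).

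BUB1B, BubR1, part of the complex that blocks anaphase, was also higher at 1000 µM. It was measured at 77.0, 74.9 and 77.7 CPM at 0 µM and at 100.4, 103 and 119 at 1000 µM. BUB1B gave 94.7, 96.6 and 91.6 with 0.01 µM, 91.8, 91.4 and 75.0 with 0.1 µM and 85.2, 95.9 and 88.2 with 1 µM. With 10 µM BUB1B stood at 99.0, 104 and 93.9, and with 100 µM at 89.5, 91.3 and 91.5. Replicate 3 at 0.1 µM again lay among the controls, and replicate 2 at 10 µM reached the level at 1000 µM. The log2 fold change at 1000 µM was 0.49 ± 0.086 (edgeR adjusted p = 0.000253), with 0.31 under the transcript length correction, still past the test, and 0.10 under the coding length correction (edgeR adjusted p = 0.236). BUB1B shares exons on its own strand with the readthrough gene BUB1B-PAK6, and BUB1 has a named copy, BUB1P1, so reads may be split in both.

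TTK, the kinase MPS1 that starts checkpoint signalling, was higher at the top dose than at 0 µM. TTK was measured at 32.5, 26.9 and 30.8 CPM at 0 µM and at 34.6, 40.5 and 50.1 at 1000 µM. TTK gave 39.6, 30.8 and 31.9 with 0.01 µM, 30.7, 30.0 and 27.5 with 0.1 µM and 31.0, 33.0 and 28.2 with 1 µM. With 10 µM TTK stood at 32.3, 30.9 and 32.7, and with 100 µM at 35.9, 36.9 and 34.4. The 1000 µM libraries lay above the controls but spread widely, and the lowest of them fell within the range at 100 µM. Against 0 µM the log2 fold change was 0.47 ± 0.12 (edgeR adjusted p = 0.0049), and against the mean of the lower doses it was 0.40 ± 0.093 (edgeR adjusted p = 0.00294). The second of these also passed under both corrections (0.24 and 0.20), while the first gave 0.26, which passed, and 0.084, which did not (edgeR adjusted p = 0.391). BUB3, the adaptor of the BUB kinases, had a log2 fold change of -0.50 ± 0.15 at 10 µM (edgeR adjusted p = 0.0242), a fall that passed under both corrections too. At 1000 µM BUB3 and MAD2L1, the closed-form inhibitor of CDC20, had -0.15 and -0.16 without passing and -0.63 and -0.54 with transcript length corrected, where both passed (edgeR adjusted p = 0.00185 and 0.00589).

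Centromere and kinetochore genes went both ways at 1000 µM (20.6% of all genes were higher and 20.6% lower). CENPE and CENPF were higher (CENPF below 0 once coding length was corrected for), SPC25 was lower, and CENPA, NDC80 and NUF2 did not pass. CENPE, a kinesin that carries chromosomes to the spindle equator, was measured at 35.8, 31.5 and 33.9 CPM at 0 µM and at 59.4, 60.2 and 82.7 at 1000 µM. CENPE gave 61.0, 50.2 and 51.6 with 0.01 µM, 47.0, 54.6 and 34.5 with 0.1 µM and 41.8, 58.7 and 40.9 with 1 µM. With 10 µM CENPE stood at 63.7, 57.2 and 55.2, and with 100 µM at 52.3, 51.4 and 58.2. Apart from replicate 3 at 0.1 µM every treated library lay above the controls, and replicate 3 at 1000 µM was the highest. CENPE had a log2 fold change of 0.69 ± 0.17 at 0.01 µM (edgeR adjusted p = 0.0392), 0.80 ± 0.17 at 10 µM (edgeR adjusted p = 0.00491), 0.68 ± 0.17 at 100 µM (edgeR adjusted p = 0.0293) and 1.00 ± 0.17 at 1000 µM (edgeR adjusted p = 0.00016). With transcript length corrected the values at 10 and 1000 µM still passed (0.52 and 0.41) and those at 0.01 and 100 µM did not (0.31 and 0.39). With coding length corrected none of the 4 passed, and the value at 1000 µM was 0.10 (edgeR adjusted p = 0.45).

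CENPF, a large kinetochore protein that binds dynein regulators, was measured at 158, 148 and 165 CPM at 0 µM and at 269, 208 and 277 at 1000 µM. CENPF gave 219.9, 214 and 206 with 0.01 µM, 195, 219 and 153 with 0.1 µM and 178, 229 and 186 with 1 µM. With 10 µM CENPF stood at 225, 237 and 213, and with 100 µM at 198, 195 and 232. The treated libraries lay above the controls save for replicate 3 at 0.1 µM, and those at 1000 µM overlapped with the lower doses. CENPF was higher at 1000 µM by 0.68 ± 0.13 on the log2 scale (edgeR adjusted p = 0.000536), but neither correction kept the call, and with coding length corrected the value changed sign (0.16 and -0.030; edgeR adjusted p = 0.323 and 0.83). CENPE and CENPF are, with ASPM, the longest of the 43 genes by coding length (8103 and 9342 nucleotides, and 10431 for ASPM).

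CENPA, the histone variant that marks centromeres, was measured at 24.2, 22.8 and 22.2 CPM at 0 µM and at 17.8, 23.6 and 18.2 at 1000 µM. CENPA gave 19.7, 17.2 and 17.0 with 0.01 µM, 18.3, 16.1 and 20.8 with 0.1 µM and 19.1, 16.3 and 13.8 with 1 µM. With 10 µM CENPA stood at 12.3, 14.3 and 15.9, and with 100 µM at 17.8, 15.2 and 16.0. All libraries from 0.01 to 100 µM lay below the controls, the lowest being replicate 1 at 10 µM, and 1 of the 3 at 1000 µM lay within them. The log2 fold change was -0.70 ± 0.14 at 10 µM (edgeR adjusted p = 0.00429), also past the test under both corrections, and -0.50 ± 0.14 at 100 µM (edgeR adjusted p = 0.042), under neither. At 1000 µM it was -0.21 (edgeR adjusted p = 0.218), and it changed sign under both corrections without passing (0.10 and 0.092). CENPA has the shortest coding sequence of the 43 (420 nucleotides) and shares exons on its own strand with SLC35F6.

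NUF2, NDC80 and SPC25 belong to the NDC80 complex, which grips microtubules. NUF2 was measured at 33.8, 27.7 and 28.4 CPM at 0 µM and at 28.3, 36.2 and 40.6 at 1000 µM. NUF2 gave 31.2, 25.9 and 26.5 with 0.01 µM, 25.2, 24.5 and 27.0 with 0.1 µM and 25.1, 25.9 and 23.9 with 1 µM. With 10 µM NUF2 stood at 24.4, 24.2 and 23.4, and with 100 µM at 33.0, 32.5 and 29.4. It lay below the controls in 11 of the 12 libraries from 0.01 to 10 µM, which did not pass as a group (-0.23, edgeR adjusted p = 0.0813), and the 1000 µM libraries lay above all but 1 of them. The step from the lower doses to 1000 µM was 0.45 ± 0.088 (edgeR adjusted p = 0.000725), with 0.38 and 0.23 under the corrections, both past the test. Against 0 µM it was 0.22 (edgeR adjusted p = 0.128), not past the test, and -0.056 with coding length corrected. NUF2 exons overlap RGS5 on the opposite strand. SPC25 went from 20.8 ± 2.03 to 15.4 ± 2.22 CPM at 1000 µM (SD, n = 3), a log2 fold change of -0.43 ± 0.14 (edgeR adjusted p = 0.0193). It lost its call with transcript length corrected (-0.19, edgeR adjusted p = 0.0842) and in 5 of 16 alternatives in all, among them leaving out replicate 1 at 0 µM or replicate 1 at 1000 µM. NDC80 was lower at 10 µM (-0.39 ± 0.14, edgeR adjusted p = 0.0498); at 1000 µM it was at -0.031, at 0.0076 with transcript length corrected and at -0.35, past the test, with coding length corrected.

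Anaphase starts when CDC20 switches on the anaphase-promoting complex, to which UBE2C brings ubiquitin, and securin (PTTG1) is destroyed; SGO1 and SGO2, the shugoshins, shield centromere cohesin until then. At 1000 µM CDC20 and UBE2C fell (20.6% of all genes did) and the other 3 did not pass. CDC20 was measured at 144, 143 and 129 CPM at 0 µM and at 94.0, 101 and 79.3 at 1000 µM. CDC20 gave 121, 117 and 119 with 0.01 µM, 130.5, 118 and 139.9 with 0.1 µM and 123, 113 and 118 with 1 µM. With 10 µM CDC20 stood at 103, 112 and 121, and with 100 µM at 114, 119 and 108. All 3 libraries at 1000 µM lay below every other library, and 2 libraries at 0.1 µM overlapped with the controls. CDC20 had a log2 fold change of -0.60 ± 0.094 against 0 µM (edgeR adjusted p = 8.39e-05), -0.31 ± 0.093 against 100 µM (edgeR adjusted p = 0.0305) and -0.39 ± 0.076 against the mean of the lower doses (edgeR adjusted p = 0.000779). With transcript length corrected the first became -0.21 (edgeR adjusted p = 0.116), not past the test, and with coding length corrected -0.44 (edgeR adjusted p = 0.00292).

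UBE2C was measured at 109, 101 and 106 CPM at 0 µM and at 82.4, 72.8 and 66.1 at 1000 µM. UBE2C gave 69.2, 107 and 106 with 0.01 µM, 87.5, 84.2 and 105 with 0.1 µM and 80.0, 96.3 and 152 with 1 µM. With 10 µM UBE2C stood at 120.1, 114 and 88.6, and with 100 µM at 107, 106 and 95.3. The 1000 µM libraries lay below the controls and below all 3 libraries at 100 µM, but replicate 1 at 0.01 µM and replicate 1 at 1 µM were as low, and replicate 3 at 1 µM was the highest of all. The fall of -0.51 ± 0.19 on the log2 scale passed narrowly (edgeR adjusted p = 0.0431); 10 of 16 alternatives ended the call, among them leaving out any 1 of the 6 libraries and both corrections (-0.047 and -0.21). The named copies UBE2CP1, UBE2CP2, UBE2CP3 and UBE2CP4 could share its reads. PTTG1, SGO1 and SGO2 were at -0.22, 0.15 and 0.27 at 1000 µM, and with coding length corrected at 0.038, -0.084 and -0.46, where SGO2 passed as lower (edgeR adjusted p = 0.00088). PTTG1 has the near-identical copies PTTG2 and PTTG3P.

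Of the 6 mitotic kinesins KIF11 and KIF14 were higher at 1000 µM and none was lower (20.6% of all genes were higher and 20.6% lower), but both were below 0 once coding length was corrected for. KIF14, which acts in cytokinesis and had the lowest level per length of the 43 genes (2.58 CPM per kilobase at 0 µM), was measured at 17.2, 18.1 and 20.9 CPM at 0 µM and at 27.3, 26.9 and 33.3 at 1000 µM. KIF14 gave 31.4, 25.0 and 24.8 with 0.01 µM, 24.6, 28.6 and 16.8 with 0.1 µM and 25.3, 25.5 and 18.8 with 1 µM. With 10 µM KIF14 stood at 25.4, 25.0 and 26.1, and with 100 µM at 21.7, 23.3 and 23.4. Replicate 3 at 0.1 µM lay below the controls, replicate 3 at 1 µM lay among them, and all other treated libraries lay above them. The log2 fold change of 0.64 ± 0.16 (edgeR adjusted p = 0.00442) was lost under both corrections and changed sign with coding length (0.14 and -0.021; edgeR adjusted p = 0.245 and 0.84). KIF11, Eg5, which pushes the poles apart, had 0.27 ± 0.10 (edgeR adjusted p = 0.039) and turned to -0.26 with coding length corrected, where it passed as lower (edgeR adjusted p = 0.00102). Of 16 alternatives 5 kept the call of KIF11, 9 ended it and 2 changed its sign; those that ended it include leaving out replicate 1 or 2 at 0 µM or replicate 2 or 3 at 1000 µM. KIF20A and KIF23 of the central spindle, KIF2C, which takes microtubules apart, and KIF4A, which limits their growth, lay between -0.077 (KIF2C) and 0.091 (KIF4A) without passing. With coding length corrected KIF20A, KIF23 and KIF4A passed as lower (-0.30, -0.33 and -0.28), which for KIF23 and KIF4A is a change of sign.

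Among spindle pole and microtubule genes at 1000 µM TACC3 fell, ASPM and PRC1 rose, and TPX2, HMMR and DLGAP5 did not pass. Of all genes 20.6% were higher and 20.6% lower there. TACC3, which cross-links spindle fibres under AURKA, was measured at 153, 143 and 144 CPM at 0 µM and at 116, 96.3 and 99.8 at 1000 µM. TACC3 gave 94.5, 128 and 124 with 0.01 µM, 125, 117 and 136 with 0.1 µM and 122, 129.9 and 134 with 1 µM. With 10 µM TACC3 stood at 114, 116 and 118, and with 100 µM at 119.6, 119 and 114. Every treated library lay below every control; the lowest were replicate 1 at 0.01 µM and replicates 2 and 3 at 1000 µM. TACC3 had a log2 fold change of -0.50 ± 0.10 at 1000 µM (edgeR adjusted p = 0.000824) and -0.27 ± 0.078 over the lower doses (edgeR adjusted p = 0.0248), and both falls passed under both corrections (-0.31 and -0.48 for the first). Its coding sequence has 2514 nucleotides. TACC3 lies on chromosome 4 (1721490 to 1745176, plus strand, GRCh38).

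ASPM, which holds microtubule minus ends at the poles, was measured at 43.8, 42.3 and 48.5 CPM at 0 µM and at 75.1, 71.0 and 101 at 1000 µM. ASPM gave 95.3, 65.4 and 64.7 with 0.01 µM, 65.4, 74.3 and 42.7 with 0.1 µM and 62.8, 76.6 and 59.9 with 1 µM. With 10 µM ASPM stood at 85.0, 79.5 and 68.6, and with 100 µM at 58.6, 63.2 and 71.8. Replicate 3 at 0.1 µM alone lay within the controls, and the highest libraries were replicate 3 at 1000 µM and replicate 1 at 0.01 µM. ASPM had a log2 fold change of 0.74 ± 0.19 at 0.01 µM (edgeR adjusted p = 0.04), 0.79 ± 0.19 at 10 µM (edgeR adjusted p = 0.0087) and 0.88 ± 0.19 at 1000 µM (edgeR adjusted p = 0.00138). The call at 0.01 µM was lost under both corrections (0.32 and 0.013), and that at 10 µM was kept with transcript length (0.47) and lost with coding length corrected (0.045). Neither correction kept the last call (0.28 and 0.0053; edgeR adjusted p = 0.0631 and 0.966). PRC1, which bundles the central spindle, had 0.40 ± 0.14 (edgeR adjusted p = 0.028) and overlaps PRC1-AS1 on the opposite strand; both corrections ended its call (0.25 and 0.27), as did 4 of the other alternatives, among them leaving out replicate 1 or 2 at 0 µM or replicate 1 at 1000 µM. TPX2, an AURKA activator, HMMR, a microtubule-binding protein, and DLGAP5, which binds spindle fibres, had 0.077, 0.24 and 0.11, and all 3 changed sign with coding length corrected (-0.14, -0.24 and -0.36), HMMR and DLGAP5 then passing as lower. TOP2A, the topoisomerase that untangles sister chromosomes, was higher by 0.41 ± 0.12 (edgeR adjusted p = 0.00974), was at 0.0010 with transcript length corrected, and turned to -0.20 with coding length corrected, past the test as lower (edgeR adjusted p = 0.0124). Its uncorrected call was lost without replicate 3 at 1000 µM.

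**Figure D5:**
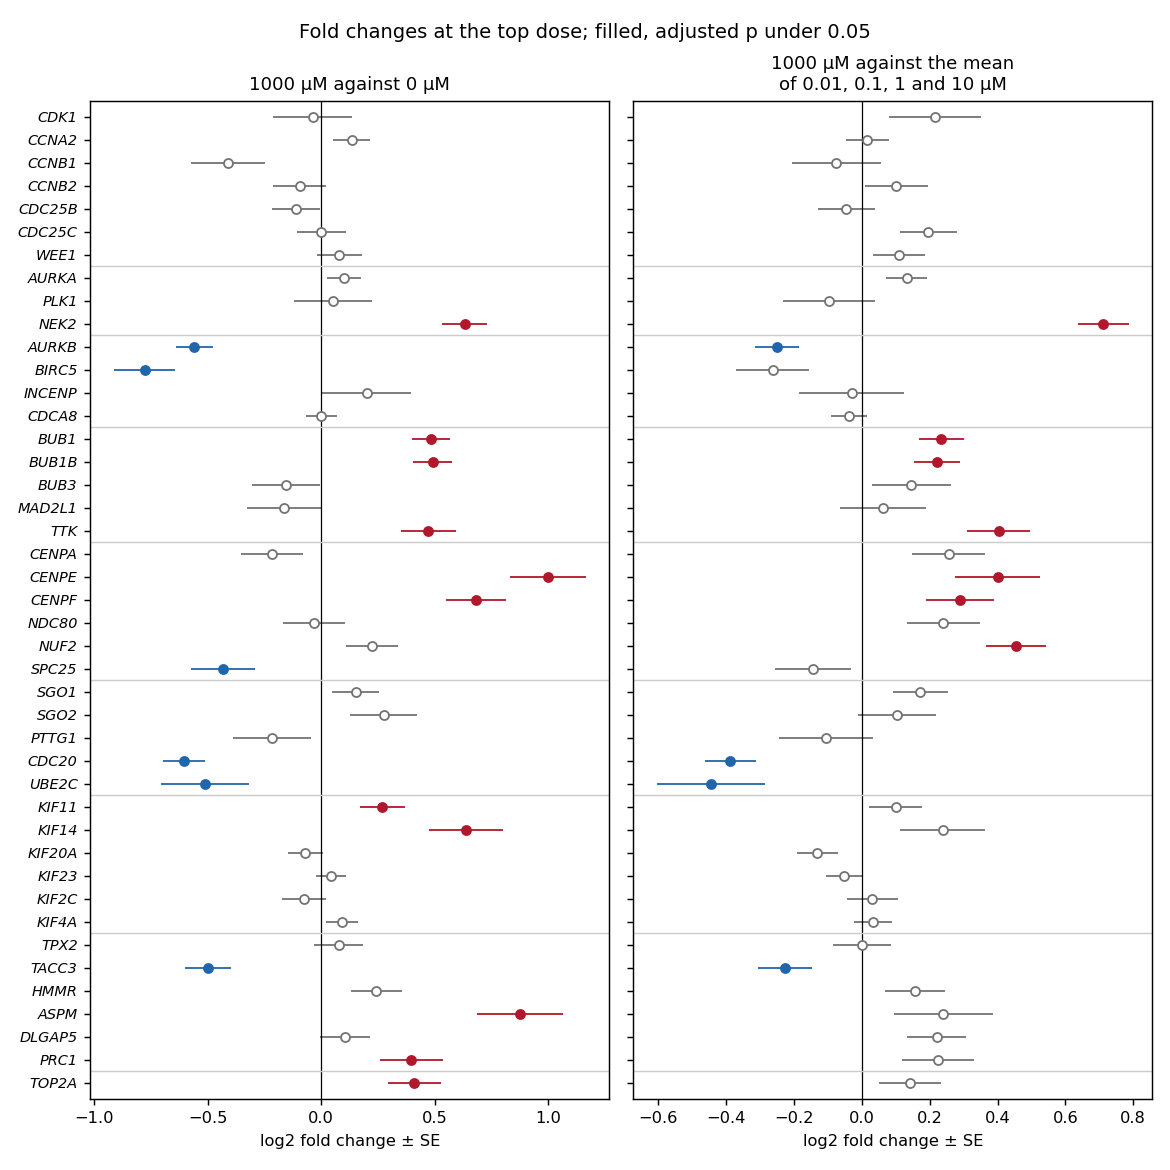
Log2 fold change with its SE (horizontal axes) of each of the 43 genes (vertical axis, by role) at 1000 µM against 0 µM (left) and against the mean of 0.01, 0.1, 1 and 10 µM (right); filled points passed edgeR's test, red higher and blue lower. Of the 17 filled points on the left, NEK2, BIRC5 and TACC3 also passed alike under both length corrections, and KIF11, CENPF, KIF14 and TOP2A change sign under the coding length correction.

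The other genes of the pathway were counted at 1000 against 0 µM (41.2% of all genes passed, 20.6% higher and 20.6% lower). Their lists were chosen for this work with earlier results of these data known. Of 17 regulators of the DREAM, MYB-MuvB and FOXM1 switch 6 were higher and 1 lower: RBL2 (0.66 ± 0.11) and RB1 (0.58 ± 0.13), the repressor p130 and the retinoblastoma protein, and NFYA (0.45 ± 0.082), a CCAAT-binding subunit, were higher, and TFDP1 (-0.35 ± 0.084), the partner of E2F proteins, was lower. RBL2, NFYA and TFDP1 passed alike under both corrections and RB1 under neither; the list split 3 and 3 with transcript length and 2 and 3 with coding length corrected. FOXM1 and MYBL2 are added for their role, outside the rule for named genes and after their values were seen: FOXM1 was at 0.041 ± 0.12 and MYBL2, B-MYB, at -0.29 ± 0.18 (edgeR adjusted p = 0.817 and 0.222).

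Of 17 further genes of the anaphase-promoting complex 3 were higher and 7 lower (1 and 4, and 1 and 9, when corrected): ANAPC2 (-0.72 ± 0.13), its cullin, passed alike under both corrections, ANAPC11 (-1.03 ± 0.22), its RING subunit, and the scaffold subunits CDC27 (0.61 ± 0.12) and CDC23 (0.35 ± 0.075) did not. Condensin and cohesin genes, which shape and hold sister chromosomes, were 14 higher and 2 lower of 19, and 5 and 2, then 3 and 5, when corrected. The cohesin loader NIPBL (1.05 ± 0.15) and the cohesin subunit STAG2 (0.83 ± 0.15) were higher in all 3 fits; the cohesin partners PDS5A (0.57 ± 0.11) and WAPL (0.62 ± 0.12) lost the call under 1 or both corrections. Of 31 other kinetochore and centromere genes 5 were higher and 10 lower (2 and 7, and 1 and 9): TRIP13 (-0.49 ± 0.067), which takes checkpoint complexes apart, and MIS18A (-0.71 ± 0.11), which helps load CENPA, were lower in all 3 fits, while CKAP5 (0.60 ± 0.10) and CENPC (0.57 ± 0.10) were higher without correction only.

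Of 32 other kinesin, midbody and cytokinesis genes 11 were higher and 4 lower (6 and 4, and 2 and 7, when corrected). CKAP2L (0.85 ± 0.12), a spindle protein, and ECT2 (0.76 ± 0.12), which starts the cleavage furrow, were higher and PIMREG (-0.65 ± 0.092) lower in all 3 fits, and CKS1B (-0.57 ± 0.093), a CDK subunit, was lower without correction only. Cell cycle brakes were lower in 4 of 8 tested and higher in none (2 and 2 under each correction). CDKN1A, the CDK inhibitor p21, had a log2 fold change of -1.27 ± 0.084 (edgeR adjusted p = 8.49e-09) and BTG2, an antiproliferative p53 target, one of -1.35 ± 0.10 (edgeR adjusted p = 6.88e-08), and both were lower in all 3 fits. GADD45A (-0.39 ± 0.12) and CDKN2D (-0.74 ± 0.24) lost the call under both corrections.

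The phases before mitosis were read from a further pair of lists. Of 13 G1 cyclins and E2F factors 3 were higher and 4 lower (0 and 3, and 2 and 2, when corrected); CDK4 (-0.80 ± 0.15) was lower in all 3 fits, and E2F1 (-0.45 ± 0.088), E2F2 (-0.32 ± 0.071) and CDK6 (0.62 ± 0.13) each lost the call under 1 or both corrections. Of 34 DNA replication genes 16 were lower and none higher, with 2 higher and 15 lower, and 1 higher and 19 lower, when corrected. POLA2 (-1.15 ± 0.12), a subunit of the priming polymerase, TK1 (-0.95 ± 0.11), thymidine kinase, GINS1 (-0.65 ± 0.092) of the replicative helicase and CDC6 (-0.59 ± 0.088), which loads it, were lower in all 3 fits. The median log2 fold change was -0.22 over the 34 replication genes, 0.08 over the 43 mitosis genes and -0.03 over all genes tested; no test of a difference between the lists was made.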

How the data were processed

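Poly(A) RNA of 21 HepG2 libraries was sequenced, and the authors deposited gene counts that are not normalized; HISAT2, GRCh38 and DESeq2 are named per the submitters' processing notes, while the counting program, annotation and strand setting are not given in the sources used here. The table has 42 per-sample columns, of which the 21 of the 6 h samples were used and 21 were not. Replicates were compared first: the chi-square per gene was 5.18 to 195 over 21 pairs, so none was counted as a duplicate.

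Genes were kept with filterByExpr at a minimum count of 10 and tested with edgeR 4.0.16 in R 4.3.3 (TMM, quasi-likelihood, 14 residual degrees of freedom, Benjamini-Hochberg, threshold 0.05), after the scripts had been tested on simulated data; 1617 of the tested features carry no annotation. Log2 CPM used a prior count of 2. Alternatives used DESeq2 1.42.0, other settings of edgeR and 2 corrections for length and GC content from GENCODE. The corrections took lowess offsets of span 0.3 over 15685 genes with a transcript length and 12736 with a coding length. Figures were drawn with matplotlib 3.10.9. Values in every library are given for the up to 3 genes of each role that differ most clearly among the 7 groups and for genes past 0.5 on the log2 scale at 1000 µM, and up to 4 genes with the smallest p are named from each other list. The members and lists were chosen with earlier results of these data known.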

Additional observations from a re-analysis of the deposited data

How the results depend on the processing

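Totals of listed genes past the threshold moved widely under at least 1 alternative in all comparisons except 1000 against 0 µM, and the cause was not tested. In that comparison the total was 17 uncorrected, 12 with transcript length and 18 with coding length corrected. The genes behind the total did change. The corrected fits shared 7 and 6 calls with the uncorrected one, and with coding length corrected the split was 2 higher and 16 lower. The call and direction of NEK2 (0.48 to 0.71 on the log2 scale), BIRC5 (-0.87 to -0.41) and TACC3 (-0.55 to -0.31) at 1000 against 0 µM held under all 16 alternatives run. At 0.01 µM the 5 calls became 11 with DESeq2, 8 with upper-quartile scaling and 9 with at least 10 counts in every library, and 0 with the replicate block, the mitochondrial share as covariate, either length correction, only the samples of both groups, or an adjusted p under 0.01. DESeq2 gave 1 call at 0.1 µM, 7 for the 1 µM dose, 12 for 100 µM and 5 between 1000 and 100 µM. Without a filter on low counts there were 9 calls at 10 µM and 1 at 1000 against 100 µM, and with only the samples of both groups 17 at 100 µM. An adjusted p under 0.01 left 6 calls for 10 µM, 0 for 100 µM, 1 at 1000 against 100 µM, 5 at 1000 µM against the lower doses, 4 for those against 0 µM, 8 among the 7 groups and 9 along the dose steps. The length corrections, chosen after seeing the data, gave 8 at 1000 against 100 µM (coding) and 7 for the lower doses against 0 µM (transcript). Among the alternatives and the fits without 1 library, shares of all genes are printed for the length corrections only. The other counts thus do not show whether the listed genes moved apart from the whole table.

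Leaving out 1 library at a time gave 0 to 5 calls for 0.01 µM, 0 to 3 for 0.1 µM, 0 to 2 for 1 µM, 7 to 16 for 10 µM, 0 to 4 for 100 µM and 13 to 17 for 1000 µM, each against 0 µM. It gave 1 to 4 for 1000 against 100 µM, 3 to 16 against the lower doses, 0 to 17 for those against 0 µM, 9 to 16 among the 7 groups and 11 to 19 along the dose steps. Replicate numbers did not pair the libraries: 63 same-numbered pairs of deviations correlated at -0.437 to 0.249, 11 of them over 0.1. The 126 pairs with other numbers correlated at -0.324 to 0.505, 30 of them over 0.1. With the replicate block the counts, in the same order, were 0, 0, 0, 12, 2, 15, 3, 8, 9, 12 and 13. No scaling moved the median of all genes by more than 0.07 on the log2 scale.

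At 1000 against 0 µM 22 listed genes changed sign under an alternative, 4 of them past the threshold without it. The values were CDK1 0.0093, PLK1 -0.037 and NDC80 0.0035 with the mitochondrial covariate, CDC25C -0.037 and CDCA8 -0.038 with upper-quartile scaling and NDC80 0.0042 without a filter. With transcript length corrected they were WEE1 -0.087, CENPA 0.10, NDC80 0.0076, SGO2 -0.095, PTTG1 0.22, KIF11 -0.089, KIF23 -0.14, KIF4A -0.11, TPX2 -0.027 and DLGAP5 -0.023. With coding length corrected they were CDC25B 0.049, CDC25C -0.078, WEE1 -0.22, CENPA 0.092, CENPF -0.030, NUF2 -0.056, SGO1 -0.084, SGO2 -0.46, PTTG1 0.038, KIF11 -0.26, KIF14 -0.021, KIF23 -0.33, KIF4A -0.28, TPX2 -0.14, HMMR -0.24, DLGAP5 -0.36 and TOP2A -0.20. Leaving out 1 library gave -0.17 to 0.17 for CDK1, -0.21 to 0.023 for CDC25B, -0.082 to 0.11 for CDC25C, -0.022 to 0.19 for WEE1, -0.083 to 0.19 for PLK1, -0.017 to 0.072 for CDCA8, -0.28 to 0.035 for BUB3, -0.11 to 0.13 for NDC80 and -0.0050 to 0.10 for KIF23. None of the 32 genes named from the other lists changed sign (480 values kept their call and 32 lost it).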
